A study of Schizosaccharomyces pombe with 24 samples.

Results

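The genes pho1, pho84 and tgp1 of fission yeast, Schizosaccharomyces pombe, were followed through phosphate starvation of cells that lack the transcription factor Pho7. They are 3 of the 6987 genes listed in each of 7 tables of mRNA abundance, and their rows were found by gene name. The study made 24 poly(A)+ RNA-seq libraries, in 8 groups of 3 biological replicates. Wild-type (WT) cells, h-, and pho7Δ cells, h- with the pho7 gene replaced by the natMX drug marker, were collected in log phase in YES, a rich medium that contains phosphate. These are the 0 h groups. The other 6 groups were pho7Δ cells held in ePMGT(-PO4), a defined medium without phosphate, for 4 h, 8 h or 12 h, or for 24 h, 36 h or 48 h. All strains, WT included, carry leu1-32, ura4-D18 and his3-D1 and a mutant ade6 allele per the study's strain list. Starved groups therefore differ from the 0 h groups by the medium as well as by phosphate, and these cannot be told apart here. No starved WT group was analysed, so nothing below says how far the starved pho7Δ levels lie from those of starved WT cells.

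Each value below is the authors' mean, the average normalized read count of a group as deposited. Values of single libraries were not analysed here, so no value carries an SD, no difference was tested against the spread between replicates, and no p-value is given. A gene is called higher or lower where the averages differ 2-fold or more on the scale of log2(average + 1) and the higher average is at least 100. A call is a statement of size alone. In RNA from whole cultures, fewer cells that express a gene and less of its RNA per cell cannot be told apart.

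Inorganic phosphate enters the fission yeast cell through transporters such as Pho84. When it is scarce, the secreted acid phosphatase Pho1 releases phosphate from organic compounds outside the cell, and the transporter Tgp1 brings in glycerophosphodiesters. The 3 genes are known as the PHO regulon. Pho7, a zinc-cluster protein, binds DNA and activates them. In phosphate-replete cells each is held down by transcription of a long noncoding RNA (lncRNA) that starts upstream on the same strand: prt2 for pho84, nc-pho1 (also called prt) for pho1, and nc-tgp1 for tgp1. All of this is background knowledge and not a result of these libraries.

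The DNA upstream of the 3 genes was searched for the sequence that Pho7 is known to recognize, and the matches are shown because Pho7 is the factor that was deleted. The search used the 12-base Pho7 recognition element on both strands, in RefSeq's ASM294v3 assembly, upstream of the annotated mRNA starts. In the first 250 bases upstream, pho1 held 2 elements and tgp1 held 1, whereas pho84 held 0. According to the paper, earlier footprinting of the pho1 and tgp1 promoters themselves defined this element. Their matches were therefore known in advance, and the shares of all windows given here are no test of them. Of 5112 windows of 250 bases upstream of protein-coding mRNAs, 99 held an element (1.94%) and 2 held 2 or more (0.0391%). In a window of 1200 bases, which was added after the data had been seen, pho84 held 1 element, and 6.26% of all windows of that length held 1 or more. The paper cites this pho84 match, too, as a site mapped earlier by footprinting. It also cites gel shift assays that placed further Pho7 sites upstream of pho84. The count of matches is therefore not a count of the Pho7 sites of this gene. Below, the element is in capitals with 20 bases on each side in lower case, and each sequence is read along the strand of its gene.

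pho1, chrII:4447299-4447382, plus strand: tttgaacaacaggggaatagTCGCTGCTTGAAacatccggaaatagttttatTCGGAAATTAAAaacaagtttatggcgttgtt

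pho84, chrII:4443093-4443144, plus strand: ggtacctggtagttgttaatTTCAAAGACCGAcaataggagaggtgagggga

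tgp1, chrII:352572-352623, minus strand: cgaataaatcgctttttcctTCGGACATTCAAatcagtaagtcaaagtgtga

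The elements of pho1 lay 187 to 176 and 155 to 144 bases upstream of its mRNA start, in the same orientation, with 20 bases between them. That of tgp1 lay 192 to 181 bases upstream in the same orientation as the gene. That of pho84 lay 988 to 977 bases upstream and was read on the opposite strand, so that its capitals above are the reverse complement of the element TCGGTCTTTGAA. The element of pho1 nearer the mRNA start and the element of tgp1 were the most alike of the 6 pairs, with 10 of 12 bases identical. The other 5 pairs shared 7 to 9 bases. Since 7 of the 12 positions of the element allow a single base, any pair of matches shares at least 7. Each element also falls within the annotated span of the lncRNA upstream of its gene, which starts 1147 bases before the pho1 start, 1559 bases before that of pho84 and 1823 bases before that of tgp1. The 4-base core of the element, TCGG or TCGC on either strand, occurred 5 times in the window of 250 bases of pho1, 4 times in that of tgp1 and 1 time in that of pho84. As many cores or more were found in 3.36%, 8.57% and 73.8% of all such windows, respectively. A match alone is a description of the letters and does not show that Pho7 binds there. For binding at these sites, the paper cites earlier footprinting, and no binding was measured in these libraries.

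The deleted gene was inspected first. Reads of pho7 averaged 3147 in WT, and 833 were still assigned to it in pho7Δ at 0 h, or 26.5% of the WT value. In the starved groups its average lay between 334 and 598. Which part of the gene natMX replaces, and hence which reads could remain, was not analysed here. The group averages summed to between 16621902 and 18645927 on the authors' common scale, which does not measure depth. The median log2 ratio to WT over all genes tested lay between -0.04 and 0.06 in the 7 pho7Δ groups.

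In rich medium, all 3 genes were lower without Pho7. The average of pho1 was 1701 in WT and 487 in pho7Δ. That of pho84 was 3790 in WT and 1313 in pho7Δ. That of tgp1 was 992 in WT and 366 in pho7Δ. The deletion strain therefore kept 28.6% of the WT average of pho1, 34.6% of that of pho84 and 36.9% of that of tgp1. The differences were -1.80, -1.53 and -1.44 on the log2 scale, or 3.49-fold, 2.89-fold and 2.71-fold lower. All 3 were called lower, as were 12.1% of the 5599 genes with an average of 100 or more in either group. Of the same genes, 94.7% had a higher log2 ratio than pho1, 93.2% a higher one than pho84 and 92.5% a higher one than tgp1.

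Without phosphate, all 3 genes climbed well above both 0 h groups although Pho7 was missing. For pho1, the averages of the starved groups in order of time were 7154, 26149, 32402, 28747, 34942 and 39014. They were highest at 48 h, with a shallow dip at 24 h. For pho84, they were 29152, 49277, 51602, 52607, 64476 and 69715, each above the one before. For tgp1, they were 7281, 11861, 9643, 7274, 9252 and 9931. Here the highest value came at 8 h, the values at 4 h and 24 h were nearly the same, and the 48 h value stood at 83.7% of the highest. Taken as a sum, the 3 genes made up 0.039% of all normalized counts in WT and 0.0118% in pho7Δ at 0 h. After 8 h and 48 h without phosphate this share was 0.484% and 0.706%.

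**Figure D1:**
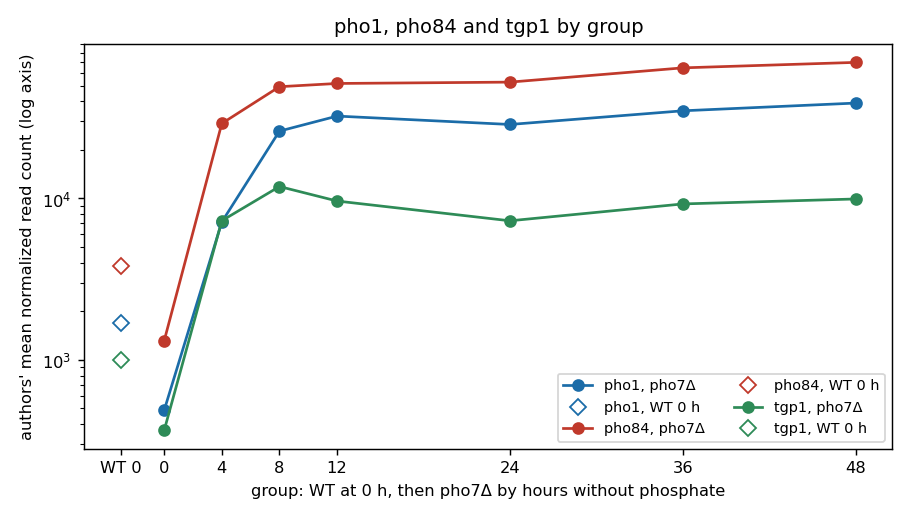
The authors' mean normalized read count of pho1, pho84 and tgp1 on a log axis, for WT at 0 h (open diamonds) and pho7Δ by hours without phosphate (points joined by lines). No error bars are drawn because values of single libraries were not analysed. Each gene is lower in pho7Δ than in WT at 0 h and above WT at every starved time, and tgp1 alone of the 3 has its highest value at 8 h (11861).

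Measured against the same strain at 0 h, the first 4 h already brought large differences. The average of pho84 was 22.2-fold that of pho7Δ at 0 h, that of tgp1 19.9-fold and that of pho1 14.7-fold. All 3 members were called higher, as were 6% of the 5520 genes tested. At this time 0.0725% of the genes tested had a larger log2 ratio than pho84, 0.109% a larger one than tgp1 and 0.145% a larger one than pho1.

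By 8 h the order of the 3 folds had turned. The average of pho1 was now 53.6-fold that of pho7Δ at 0 h, ahead of pho84 at 37.5-fold and tgp1 at 32.4-fold. All 3 were called higher, against 12.6% of all genes tested. They were called at every later time as well, when 14.7% (12 h), 17.7% (24 h), 18% (36 h) and 18% (48 h) of all genes were. At 48 h the folds were 79.9 for pho1, 53.1 for pho84 and 27.1 for tgp1, or 6.32, 5.73 and 4.76 on the log2 scale. Genes with a larger log2 ratio made up 0.193%, 0.368% and 0.789% of those tested at that time. These 6 comparisons share the pho7Δ 0 h libraries and are not independent of one another.

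The levels in replete WT cells gave the second reference. At 4 h the average of pho1 stood at 421% of that of WT, that of pho84 at 769% and that of tgp1 at 734%. All 3 were called higher, as were 15.2% of the 5664 genes tested. At 8 h the folds over WT were 15.4 for pho1, 13.0 for pho84 and 11.9 for tgp1, and 18% of all genes were called higher. The 3 genes were called higher at the 4 later times too, when 19.6% (12 h), 21.3% (24 h), 21.1% (36 h) and 20.9% (48 h) of all genes were. At 48 h the averages of pho1 and pho84 were 22.9-fold and 18.4-fold those of WT, and that of tgp1 was 3.32 above WT on the log2 scale. Genes with a larger log2 ratio to WT made up 1.57%, 1.97% and 3.47% of the 5790 tested. The 7 comparisons with WT share the WT libraries.

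**Figure D2:**
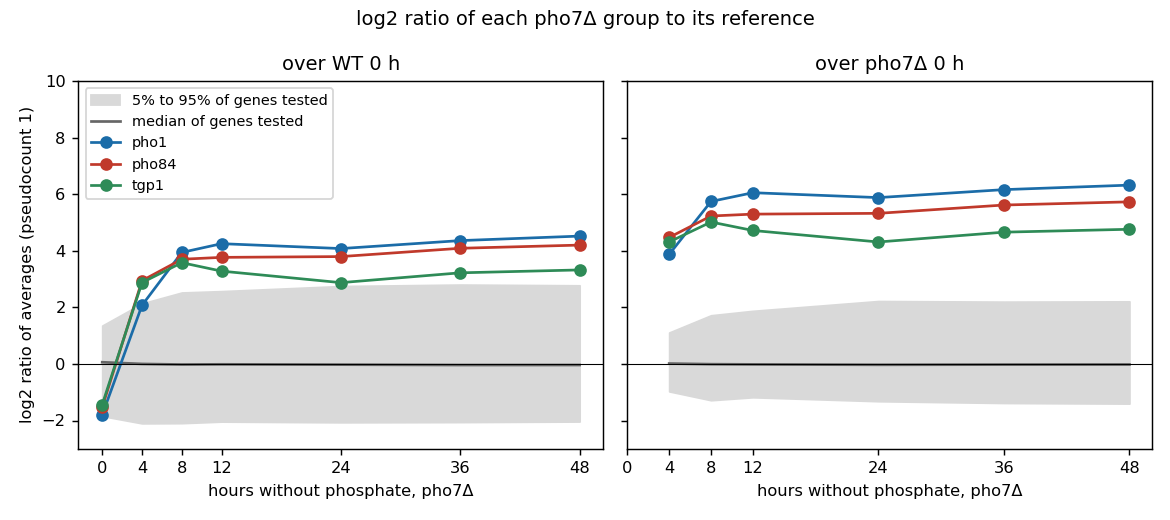
The log2 ratio of the average of each pho7Δ group, by hours without phosphate, to WT at 0 h (left) and to pho7Δ at 0 h (right), for pho1, pho84 and tgp1 (colored lines), with the range that holds 5% to 95% of the genes tested (gray band) and their median (gray line). At 0 h the 3 members lie between -1.80 and -1.44, at 4 h pho1 sits just below the upper edge of the band on the left (2.07 against 2.14), and on the right all 3 lie above the band at every time.

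The 3 genes differed in how early they neared their 48 h averages. The difference between pho7Δ at 0 h and at 48 h served as the yardstick. At 4 h, tgp1 had covered 72.3% of it, pho84 40.7% and pho1 17.3%. The shares of tgp1 are raised by this choice, since its 48 h average lay below that at 8 h. As a percent of the highest average of each gene, the 4 h values were 61.4% for tgp1, 41.8% for pho84 and 18.3% for pho1. At 8 h, tgp1 stood at 120%, pho84 at 70.1% and pho1 at 66.6%. The 3 genes came together at 24 h, with 72.2%, 75% and 73.4%, and they stood between 89.4% and 92.9% at 36 h. The acid phosphatase gene thus showed the smallest share of its final difference at 4 h and 8 h, and the glycerophosphodiester transporter gene the largest.

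**Figure D3:**
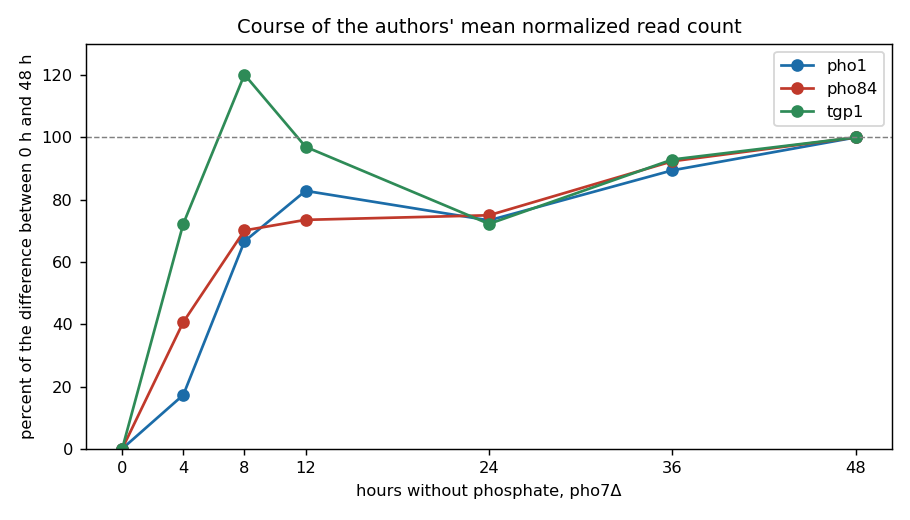
The average of each gene in pho7Δ by hours without phosphate, as a percent of the difference between its averages at 0 h and 48 h (dashed line, 100%). At 4 h the 3 genes are spread from 17.3% (pho1) to 72.3% (tgp1), and at 24 h they lie between 72.2% and 75%.

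Between consecutive starved times, from 4 h on, 1 step of a member was large enough to be called. From 4 h to 8 h, pho1 went from 7154 to 26149, 3.65-fold higher, whereas pho84 was 1.69-fold and tgp1 1.63-fold higher and neither was called. Of the 5549 genes tested for this step, 3.08% were called higher, and 0.559% had a larger log2 ratio than pho1. None of the 3 was called in either direction in the 4 later steps. In these, between 0.0356% and 1.15% of all genes were called higher and between 0.0356% and 0.921% lower. From 8 h to 12 h, pho1 was 23.9% higher and pho84 4.72% higher, whereas tgp1 stood at 81.3% of its 8 h average. From 12 h to 24 h, tgp1 stood at 75.4% and pho1 at 88.7% of the 12 h average, and pho84 at 102%. Of all genes tested, 90.1% had a larger log2 ratio than tgp1 from 8 h to 12 h, and 92.8% from 12 h to 24 h. From 24 h to 36 h the 3 genes were 21.5% (pho1), 22.6% (pho84) and 27.2% (tgp1) higher. Genes with a larger log2 ratio in this step made up 3.39%, 3.00% and 2.1% of all tested. From 36 h to 48 h they were 11.7%, 8.13% and 7.34% higher. Whether such small steps exceed the spread between replicates was not tested.

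Because a longer mRNA yields more reads, levels of different genes were compared per kilobase (kb) of annotated mRNA, which is 1548 bases for pho1, 2100 for pho84 and 2102 for tgp1 in ASM294v3. In all 8 groups pho84 had the highest level per kb and tgp1 the lowest, and without values of single libraries it cannot be said which neighbors in this order differ beyond their spread. In WT the averages per kb were 1805 for pho84, 1099 for pho1 and 472 for tgp1. In pho7Δ at 0 h they were 625, 315 and 174. At 48 h they were 33197, 25203 and 4725. Among the 5112 protein-coding genes with a length, pho84 held place 1238 in WT, 3152 in pho7Δ at 0 h and 38 at 48 h. The places of pho1 were 2036, 4276 and 60, and those of tgp1 were 3636, 4657 and 481.

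The balance between the members shifted with time. Per kb, pho84 mRNA was 1.99 times as abundant as pho1 mRNA in unstarved pho7Δ cells, 3.00 times after 4 h and 1.39 times after 8 h. From then on this ratio stayed between 1.17 and 1.39. The ratio of pho84 to tgp1 was 3.59 at 0 h, 4.01 at 4 h, 4.16 at 8 h, and then 7.24 at 24 h and 7.03 at 48 h. The ratio of pho1 to tgp1 went from 1.81 at 0 h to 1.33 at 4 h and to 5.37 at 24 h. In WT at 0 h the 3 ratios were 1.64, 3.83 and 2.33. The 2 permeases of the regulon, for inorganic phosphate and for glycerophosphodiesters, thus kept a ratio between 3.59 and 4.16 up to 8 h and differed more at later times.

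The lncRNAs that start upstream of the members were looked for next. Only prt2 has a row, listed in the tables under SPBC8E4.02c as a protein-coding gene, and RefSeq gives that name as a synonym of prt2. Its averages were 1521 in WT and 210 in pho7Δ at 0 h, or 13.8% of the WT average. In the starved groups they were 139, 159, 192, 216, 251 and 281 in order of time. All 6 lay between 9.12% and 18.5% of the WT average, and the lowest came at 4 h. Against pho7Δ at 0 h, the log2 ratio was -0.60 at 4 h and 0.42 at 48 h, and prt2 was not called in either direction at any time. The row was thus lower by more than pho84 itself in pho7Δ at 0 h, and it stayed low while pho84 climbed. The span counted for this row in the authors' annotation was not analysed, and it may cover only part of prt2. No rows were found for nc-pho1 and nc-tgp1, which were not analysed here.

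The arrangement of these transcripts limits what the counts can tell apart. In ASM294v3, prt2 runs on into pho84 and covers 89.0% of its mRNA on the same strand. Likewise, nc-pho1 covers 91.3% of the pho1 mRNA, whereas nc-tgp1 covers 3.66% of the tgp1 mRNA. RefSeq also lists antisense lncRNAs without a row here, and these cover 89.5% of pho84, 64.5% of tgp1 and 14.4% of pho1. The libraries were made with a stranded kit, per the paper, so their reads carry strand. Whether HTSeq took strand into account is not stated in the sources used. Reads of a same-strand lncRNA over the mRNA could be counted with the member, as could reads of an antisense RNA if strand was not used. Their part in the values above was not tested.

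Other genes lie close by. The genes pho84 and pho1 are neighbors on 1 strand of chromosome II with 1305 bases between them in ASM294v3, and tgp1 lies elsewhere on chromosome II. Within 5000 bases of the 3 members, RefSeq lists 25 genes, pho1 and pho84 included, of which 14 have a row. The gene ecl3 of the ecl lifespan family is divergent from prt2 and starts 2274 bases from the pho84 start. Its averages were 4.51 in WT, 9.73 in pho7Δ at 0 h, 118 after 4 h and 828 after 48 h. Like pho84, it had a higher average at each starved time than at the time before. Unlike the members, its average was not lower in pho7Δ than in WT at 0 h, although both values are far below 100.

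Downstream of pho1 lies fub2, on the same strand. Its average was 7594 in WT but 97.4 in pho7Δ at 0 h, or 1.28% of WT, and then 144 at 4 h and 4660 at 36 h. SPNCRNA.1695, a noncoding RNA on the opposite strand there, had averages of 127 in WT, 18.5 in pho7Δ at 0 h, 1609 after 12 h and 377 after 48 h. These 2 rows, too, were lower in pho7Δ than in WT at 0 h and higher again in starved cells, but fub2 stayed below its WT average at every time, unlike pho84 and pho1.

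Around tgp1 the neighbors went several ways. SPBC1271.10c converges on tgp1 and overlaps 67 bases of it. Its averages were 2372 in WT, 1905 in pho7Δ at 0 h, 572 after 4 h and 1088 after 48 h. SPNCRNA.1343 is a noncoding RNA on the strand opposite to tgp1. In ASM294v3 it starts 1620 bases upstream of the tgp1 start, inside nc-tgp1, so the 2 transcripts overlap. SPNCRNA.1343 had 879 in WT, 680 in pho7Δ at 0 h, 286 after 4 h and 651 after 48 h. The rows SPBC1271.10c and SPNCRNA.1343 were thus both lowest at 4 h, the time of the steepest climb of tgp1. By contrast, SPBC1271.08c, 4172 bases away on the opposite strand, had 354 in WT, 906 in pho7Δ at 0 h, 5153 after 4 h and 15338 after 36 h. The noncoding RNA SPNCRNA.1344 had 279 in WT, 231 in pho7Δ at 0 h and 2066 at 24 h. The gene pet802 stayed between 680 and 1376 in all groups.

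**Figure D4:**
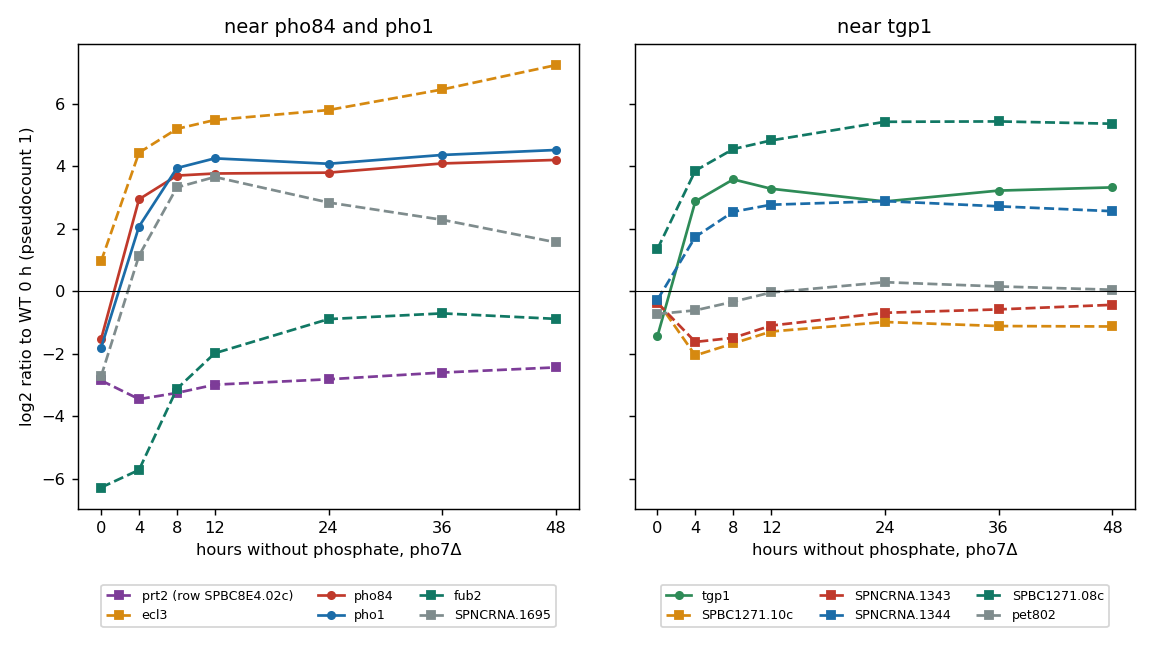
The log2 ratio to WT at 0 h of each pho7Δ group, by hours without phosphate, for the members (solid lines, circles) and annotated neighbors with a row (dashed lines, squares), near pho84 and pho1 (left) and near tgp1 (right). The row of prt2 stays between -3.45 and -2.43 while pho84 goes from -1.53 to 4.20, and near tgp1 the rows SPBC1271.10c and SPNCRNA.1343 are lowest at 4 h.

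The other genes of phosphate acquisition give the setting. The list of 11 holds transporters, phosphatases, nucleotidases and subunits of the vacuolar polyphosphate polymerase, and it was chosen with earlier results of these data known. In rich medium, 10 of them had an average of 100 or more in WT or pho7Δ, of which 4 were called higher, 2 lower and 4 neither, beside 8.5% of all genes higher and 12.1% lower. The median log2 ratio over the list was 0.62, beside -1.53 for the 3 PHO members and 0.06 for all genes tested. The 2 called lower were further transporter genes, pho842 (3002 in WT and 125 in pho7Δ) and pho843 (5680 and 2612). At 48 h, 8 of the 11 were called higher than WT, 1 was lower (pho843, 912) and 2 were neither, beside 20.9% of all genes higher and 19% lower. Their median log2 ratio to WT was 2.21, beside 4.20 for the members and -0.04 for all genes tested.

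Single genes of this list show how the members compare. The transporter gene pho841 had averages of 2608 in WT, 5377 in pho7Δ at 0 h and 33788 at 48 h, so it ended 13.0-fold above WT without a lower value at 0 h. The average of pho842 in pho7Δ was 18.9-fold higher at 48 h than at 0 h, and it then stood at 79.2% of WT. The average of pho843 was lower still when phosphate was withdrawn, at 1050 at 4 h. The nucleotidase gene SPAC1039.02 had the highest average of the list, with 738 in WT, 12501 in pho7Δ at 0 h and 191924 at 8 h. Like tgp1, it was highest at 8 h, and it then stood at 46685 at 48 h. The nucleotidase gene SPBPB2B2.06c had 2.13 in WT and 2.82 in pho7Δ at 0 h, both far below 100. Its average was 5048 at 12 h and 739 at 48 h. The log2 ratios to WT at 48 h were 7.88 for SPBPB2B2.06c and 5.98 for SPAC1039.02, above those of all 3 members. The gene of the vacuolar alkaline phosphatase, pho8, and the polymerase subunit genes vtc4 and nrf1 stood at 463%, 434% and 520% of WT at 48 h, and vtc2 at 217%. The thiamine-repressible acid phosphatase gene pho4 went from 2960 in pho7Δ at 0 h to 1154 at 48 h, in the opposite direction to pho1. The medium without phosphate has thiamine added, and whether pho4 responded to thiamine or to phosphate was not tested.

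**Figure D5:**
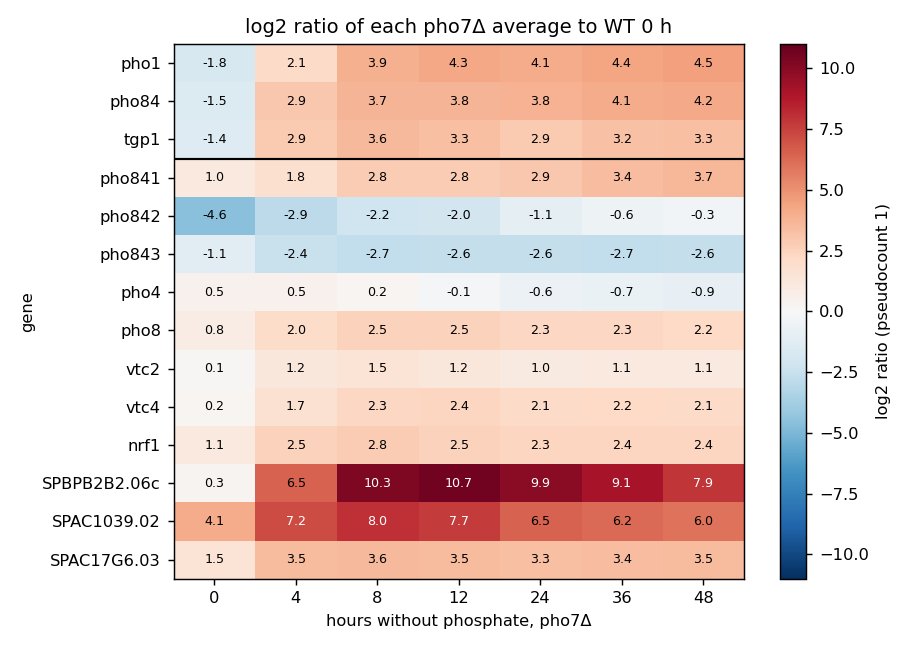
Heat map of the log2 ratio to WT at 0 h of each pho7Δ group (columns, hours without phosphate) for the 3 PHO members (above the line) and the 11 other genes of phosphate acquisition (below it), red for higher and blue for lower than WT. At 0 h the members, pho842 and pho843 are the rows below 0, and at 48 h the members lie between 3.32 and 4.52.

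Genes whose products act on the PHO genes made up a second list of 16. They encode Pho7, the kinase Csk1, enzymes of inositol pyrophosphate metabolism such as Asp1 and Aps1, and factors that act in 3′ processing and termination of transcription. Against pho7Δ at 0 h, 1 of 16 was called higher at 4 h (asp1) and none was called lower, beside 6% and 4.57% of all genes. At 48 h, asp1 and siw14 were called higher and pho7 and dis2 lower, beside 18% and 12.7% of all genes. The pho7 call here concerns only reads still assigned to the deleted gene, 833 at 0 h and 334 at 48 h. It says nothing of a regulator that these cells lack. The averages of asp1, which both makes and breaks inositol pyrophosphates, were 1826 in WT, 1918 in pho7Δ at 0 h, 4585 after 4 h and 4265 after 48 h. Those of siw14, which encodes an inositol pyrophosphatase, were 880, 1566, 2949 and 3884. Against WT, 5 of 16 were called higher at each of the 6 starved times, namely asp1, aps1, siw14, duf89 and ssu72, beside 15.2% to 21.3% of all genes. Already at 0 h, duf89 and ssu72 were called higher and pho7 lower, beside 8.5% and 12.1% of all genes. The averages of aps1 and siw14 in pho7Δ at 0 h stood at 182% and 178% of WT. Against pho7Δ at 0 h, aps1, duf89 and ssu72 were not called at any starved time. Called lower at 4 h and 8 h were 3 of 16, namely pho7, csk1 and seb1, beside 15.1% and 18% of all genes. As pho7 is the deleted gene, its lower calls against WT, here and at the later times, are fixed by the strain. The averages of the kinase gene csk1 at these times were 429 and 493, beside 1121 in WT and 616 in pho7Δ at 0 h. Those of seb1, which encodes a termination factor, were 2671 and 2783, beside 6335 in WT and 3910 in pho7Δ at 0 h. Neither csk1 nor seb1 was called against pho7Δ at 0 h at any starved time. At 12 h pho7 alone was called lower, beside 16.8% of all genes, and at the last 3 times pho7 and kcs1 were, beside 18.4% (24 h), 18.9% (36 h) and 19% (48 h). The median log2 ratio of the list to pho7Δ at 0 h stayed between -0.0014 and 0.12, whereas the members were 14.7-fold to 79.9-fold higher.

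Over the 8 group averages, the members were compared with each other and with all other genes. Pearson's r of log2(average + 1) was 0.986 between pho1 and pho84, 0.988 between pho84 and tgp1 and 0.961 between pho1 and tgp1. The points are group means in which 2 unstarved groups stand far from 6 starved ones, so that a high r can come from this contrast alone. Of the 5861 genes compared, 164 reached 0.95 with pho1, 103 with pho84 and 47 with tgp1. The 5 most like pho1 were obr1-antisense-1, SPAC11D3.08c, SPBC19G7.18c, SPNCRNA.1025 and the DNA ligase gene adl1, with r between 0.992 and 0.995. For pho84 they were mug15, stb3, SPAC6F6.19-antisense-1, SPBC8E4.04 and tgp1, with r between 0.988 and 0.996. For tgp1 they were stb3, pho84, the bromodomain gene bdf2, the meiotic recombination gene rec7 and SPAC630.07c, with r between 0.982 and 0.991. In the order of likeness to pho1, pho84 held place 11 and tgp1 place 104, and pho1 held place 8 for pho84 and place 24 for tgp1. A like pattern did not mean a like size. The average of stb3, which is on both of the latter lists, went from 1107 in pho7Δ at 0 h to 10217 at 48 h, 9.22-fold, and that of adl1 from 835 to 1661, 1.99-fold.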

How the data were processed

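Poly(A)+ RNA of 24 fission yeast libraries had been sequenced by the authors. The submitters' notes name HISAT2 2.1.0 with the ASM294v2 build, SAMtools, HTSeq 0.10.0 for counting and DESeq2. The strand setting used in counting was not given in the sources used here. Each of 7 deposited tables compares 1 pho7Δ group with WT at 0 h and holds, as a signal, the authors' mean normalized read count of both groups. The tables also hold the authors' overall mean, log2 fold changes, standard errors, test statistics and p-values, none of which was used. Depth per library was not analysed here.

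Ratios are log2((average + 1)/(reference average + 1)). A gene was tested for a call where its average was 100 or more in either group. Samples were grouped by their labels. The members and lists were chosen with earlier results of these data known. Named genes were the 3 members, annotated genes within 5000 bases of them, the listed genes, the 5 genes of highest r with each member, and pho7. Python 3.11.15, pandas 2.3.3, NumPy 2.4.6 and SciPy 1.17.1 were used, with Matplotlib 3.10.9 for plots. The calls were also run on simulated averages with planted changes and counting noise alone. That run cannot show how the calls fare with real spread between replicates. Of the 6987 rows, 6847 matched RefSeq (ASM294v3), which gave the lengths, neighbors and sequences. Positions and lengths are of that assembly and not of the ASM294v2 annotation used by the authors. Other scalings, pseudocounts, limits and correlations were tried.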

Additional observations from a re-analysis of the deposited data

How the results depend on the processing

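The 54 log2 ratios of pho1, pho84 and tgp1 were recomputed with equal totals of the group averages, with the median ratio to WT as scale, with no pseudocount and with a pseudocount of 10. All 54 kept their direction and their side of the 2-fold limit under each of the 4 settings. The largest shifts were 0.166 with equal totals, 0.161 with the median ratio, 0.0038 with no pseudocount and 0.0339 with 10. The likeness depended on the measure. Spearman's rho was 0.690 between pho1 and tgp1 and 0.619 between pho84 and tgp1, and 0.976 between pho1 and pho84. Without WT, Pearson's r was 0.951, 0.984 and 0.983. With a fold of 4 in place of 2, the share of all genes called in the 14 comparisons was 0.451% to 9.14%, beside 3.08% to 21.3% as reported. It lay within 1.5 times the reported share in 13 of 14 comparisons with no minimum average, 13 with a minimum of 1000, 12 for protein-coding genes and 14 with equal totals. The count of Pho7 elements upstream of pho84 was 0 in 250 bases and 1 in 1200 bases. Leaving out replicates was not run, since values of single libraries were not analysed here. No paired analysis was possible because the columns are means of each group and no test was made. The averages limit every statement to size, without replicate error.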
